A study of Mus musculus with 49 samples.

Results

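The transcripts of Ccnd2 and Cdkn1a, which encode cyclin D2 and p21, were followed through every group of mouse bone marrow B cells in the series. They were found as the probe sets that matched Ccnd2 or Cdkn1a alone. A probe set is a group of oligonucleotides on an Affymetrix array that together measure 1 transcript. Of the 9977 probe sets in the U74Av2 table and the 12588 in the U74A table, 3 matched in each. Ccnd2 was measured by 97504_at, and Cdkn1a by 94881_at and 98067_at. All 3 were tested, and none was lost to a filter on low values. Of the Cdkn1a probe sets, 94881_at had the higher mean log2 signal over the 37 U74Av2 arrays and stands for the gene where only 1 value is given. In most U74Av2 groups, however, 98067_at had the higher mean signal, so the choice does not mark the better measure. In the RefSeq annotation of GRCm38.p6, Ccnd2 lies at chr6:127125162-127152188 and Cdkn1a at chr17:29090979-29100722. Which exons the probes hit was not analysed here.

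The series asked what immature B cells express when they lose their B cell receptor or its signal, with progenitors and freshly sorted cells as landmarks. B6-M- cells were C57BL/6 marrow cells grown in IL-7 and sorted as B220+ without surface IgM (3 arrays). Cre-Mlo and Cre-Mhi cells (4 arrays each) carried a loxP-flanked B1-8 heavy chain, the 3-83κ light chain and Mx-Cre, a Cre recombinase driven by an interferon-inducible promoter. Ctrl-Mhi cells (4 arrays) carried the same receptor genes without Mx-Cre. All 3 groups were grown in IL-7, then kept for 2 days with IFNαβ and no IL-7, and sorted for low or high surface IgM, so the interferon was shared by the controls. FxD and FxE were pre-B cells (B220+CD43-IgM-) and immature B cells (B220+IgM+IgD-) sorted from fresh Balb/c marrow (3 arrays each). FxE HA and FxE Ctrl were immature B cells of Bcl-2 transgenic mice kept for 24 or 48 h with herbimycin A, an inhibitor of tyrosine kinases, or in medium (6 and 4 arrays). GFPpos and GFPneg cells (3 arrays each) came from mice with both an anti-HEL immunoglobulin transgene and a Rag2-GFP reporter, were grown in IL-7, and then spent 1 day without it. GFPpos cells had received herbimycin A and were sorted as IgM+ and GFP+, whereas GFPneg cells had received none and were sorted as IgM+ without GFP, so treatment and gate cannot be told apart. On the U74A arrays, HEL 48 h cells of the same double transgenic mice were grown for 5 days in 16 ng/ml IL-7, then kept for 48 h with 1 µg/ml HEL (the antigen), and sorted as GFP+ with high IgMa. Ctrl 48 h cells were kept without HEL and sorted without GFP, so here too antigen and gate cannot be told apart. HEL-Mhi cells were IL-7-grown HEL-Ig cells with high IgM and little or no IgD, and HEL-Mlo cells had low IgMa and no IgD (3 arrays for each of these 4 groups). The mice were generally a few weeks old.

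D-type cyclins bind Cdk4 and Cdk6 in early G1, and the kinase complex phosphorylates the retinoblastoma protein, which frees E2F factors to turn on the genes of S phase. Cyclin D2 is known as a D-type cyclin that B cells induce on receptor and cytokine signals. The inhibitor p21 blocks Cdk2 complexes with cyclin E or A, is a classical target of p53, and also helps D-type cyclins to assemble with Cdk4. Cytokine receptors such as that for IL-7 act through STAT5, whose known targets include Cish and genes of the Socs family.

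Cdkn1a has 2 annotated starts in the RefSeq promoter table for GRCm38.p6, both on the plus strand, and each is shown from 250 bases before the start to 50 after it, as the gene is followed below beside other p53 targets. Capitals mark matches to the p53 half-site motif at the first start and the letters GGGCGG (the GC box) at the second. Both strands were searched, and these motifs do not overlap in either window.
Cdkn1a start 1, chr17:29090729-29091028: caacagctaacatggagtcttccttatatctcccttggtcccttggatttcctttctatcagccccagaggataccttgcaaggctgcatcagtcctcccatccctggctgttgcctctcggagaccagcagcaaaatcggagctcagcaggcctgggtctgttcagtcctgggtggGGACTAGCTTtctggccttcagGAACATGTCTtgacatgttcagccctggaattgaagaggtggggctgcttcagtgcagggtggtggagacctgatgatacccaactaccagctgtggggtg
Cdkn1a start 2, chr17:29093519-29093818: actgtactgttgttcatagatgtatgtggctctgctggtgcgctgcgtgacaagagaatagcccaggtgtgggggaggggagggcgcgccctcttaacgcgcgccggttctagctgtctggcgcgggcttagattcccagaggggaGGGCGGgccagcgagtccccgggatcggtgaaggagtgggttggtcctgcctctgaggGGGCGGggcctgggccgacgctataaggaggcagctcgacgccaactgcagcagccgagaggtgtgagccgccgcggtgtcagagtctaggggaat
At the first start the p53 half-site matched at -73 to -64 and at -51 to -42 from the start, reading the same positions on both strands, and no GC box was found. At the second start GGGCGG stood at -104 to -99 and at -46 to -41, with no p53 half-site. Of 32851 promoter windows of this length, 8.36% held at least 1 p53 half-site and 35.7% a GC box. These are letters in a window, and no binding was measured.

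The values are hybridization signals that the authors scaled to a target of 1500 units, though no target is given for HEL 48 h and Ctrl 48 h in the sources used here. Median signals of the U74Av2 arrays ran from 345.9 to 544 and 1.48% to 6.86% of the values lay at or below 20, to which lower values were raised. The U74A arrays were scaled separately and are described only among themselves. HEL-Mlo arrays had median signals of 21.6 to 26.2, against 512 to 596 on the other U74A arrays, and enter no comparison. B lineage markers (7 genes measured on U74Av2) were above 20 on every U74Av2 array, as were most values of these arrays, so this says little about cell identity. The 12 myeloid markers had summed signals of 30374 to 277460 in FxD, FxE, FxE HA and FxE Ctrl, against 5312 at most in the IL-7-grown groups of the U74Av2 table. The 6 erythroid markers summed to 60909 to 161998 in FxD and FxE, against 42647 at most elsewhere. The part of these other cells in the differences below was not tested.

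Ccnd2 had its highest signals in B6-M- cells and its lowest in FxD, FxE HA and FxE Ctrl cells. The B6-M- arrays gave 2836, 3911 and 4459 units (mean 3735 ± 826, SD, n = 3). Cre-Mlo arrays gave 319.7, 404, 566 and 348 units (409 ± 110, n = 4). Cre-Mhi arrays gave 1691, 1729, 1965 and 1322 units (1677 ± 266, n = 4) and Ctrl-Mhi arrays 1218, 1444, 1327 and 1784 (1443 ± 245, n = 4). The B6-M- arrays all lay above these, the Cre-Mhi and Ctrl-Mhi arrays overlapped each other, and the Cre-Mlo arrays lay below both. FxD arrays gave 66.6, 25.0 and 36.6 units (42.7 ± 21.5, n = 3), and FxE arrays 379, 401 and 359.7 (380 ± 20.7, n = 3). GFPpos arrays gave 776, 487 and 846 units (703 ± 190, n = 3) and GFPneg arrays 568, 1148 and 720 (812 ± 301, n = 3). FxE HA arrays ran from 24.7 to 68.7 units with a median of 46.2 (45.6 ± 14.7, n = 6), and FxE Ctrl arrays gave 53.3, 33.4, 47.4 and 72.5 (51.7 ± 16.2, n = 4). The means thus ran, high to low, from B6-M- through Cre-Mhi, Ctrl-Mhi, GFPneg, GFPpos, Cre-Mlo and FxE to FxE Ctrl, FxE HA and FxD. From GFPneg to FxE each group overlapped the next in this order. All Ctrl-Mhi arrays lay above all GFPneg arrays, and all FxE arrays above FxD, FxE HA and FxE Ctrl. FxD and FxE arrays did not overlap for 20.2% of all probe sets. Such shares, here and for Cdkn1a below, were computed only for the pairs of groups where they are printed. FxD, FxE HA and FxE Ctrl overlapped one another near the floor of 20 units, at the 5.2nd to 19.2nd percentile of their arrays. A fold against these groups is therefore less certain than one between bright groups.

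Cdkn1a was also highest in B6-M- cells, but its order of groups was another one. On 94881_at the B6-M- arrays gave 2148, 2040.5 and 3482 units (2557 ± 803, n = 3), all above those of the other groups. Cre-Mlo arrays gave 470.1, 556, 548 and 487 units (515 ± 42.8, n = 4), against 706, 166, 719.8 and 1118 in Cre-Mhi arrays (678 ± 391, n = 4) and 1087, 1014, 762 and 1183 in Ctrl-Mhi arrays (1012 ± 180.0, n = 4). FxD arrays gave 1440.4, 757 and 976 units (1058 ± 349, n = 3), and FxE arrays 473, 236 and 109.9 (273 ± 184, n = 3). All FxD arrays lay above all FxE arrays, and all Cre-Mlo arrays below all Ctrl-Mhi arrays. In these pairs the arrays did not overlap for 20.2% and 16.7% of all probe sets. GFPpos arrays gave 536, 846 and 966 units (783 ± 222, n = 3), and GFPneg arrays 1671, 1616 and 1722 (1669.8 ± 53.2, n = 3). FxE HA arrays ran from 516 to 760.2 with a median of 719 (686 ± 91.1, n = 6), and FxE Ctrl arrays gave 143, 630.0, 331 and 339 units (361 ± 201, n = 4). By their means the groups below B6-M- ran, high to low, GFPneg, FxD, Ctrl-Mhi, GFPpos, FxE HA, Cre-Mhi, Cre-Mlo, FxE Ctrl and FxE. GFPneg arrays lay above all FxD arrays. From FxD downwards each group overlapped the next, and the Cre-Mhi array with 166 units stood well below the other 3 of its group.

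The second Cdkn1a probe set, 98067_at, gave a flatter picture at the top. B6-M- arrays had 1574, 1615 and 2131 units (1773 ± 310.3, n = 3) and overlapped GFPneg arrays with 1769.7, 1779.6 and 1605 (1718 ± 98.3, n = 3). Cre-Mlo arrays gave 833, 786, 809 and 778 units (802 ± 24.8, n = 4). Cre-Mhi arrays gave 772, 1339.7, 1767 and 1414 units (1323 ± 412, n = 4) and Ctrl-Mhi arrays 1114, 1199, 1234 and 1262 (1202 ± 64.0, n = 4). Cre-Mhi, through its array with 1767 units, overlapped B6-M- and GFPneg, and its array with 772 units lay below the Cre-Mlo arrays. FxD arrays gave 1516, 1053 and 822 units (1130.3 ± 354, n = 3), and FxE arrays 630.0, 987 and 672 (763 ± 195, n = 3). GFPpos arrays gave 887, 1210.4 and 888 (995 ± 186, n = 3). Ctrl-Mhi, FxD and GFPpos lay below B6-M- and GFPneg on every array. FxE HA arrays ran from 88.6 to 329.6 with a median of 154 (188 ± 90.8, n = 6), and FxE Ctrl arrays gave 235, 164, 561 and 112 units (268 ± 202, n = 4). These cultured Bcl-2 transgenic cells were below every other group on 98067_at, but not on 94881_at, and over the 10 group means the log2 signals of the 2 probe sets had a Pearson r of 0.57 (Spearman rho 0.74). Whether they measure different transcripts of Cdkn1a was not tested.

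**Figure D1:**
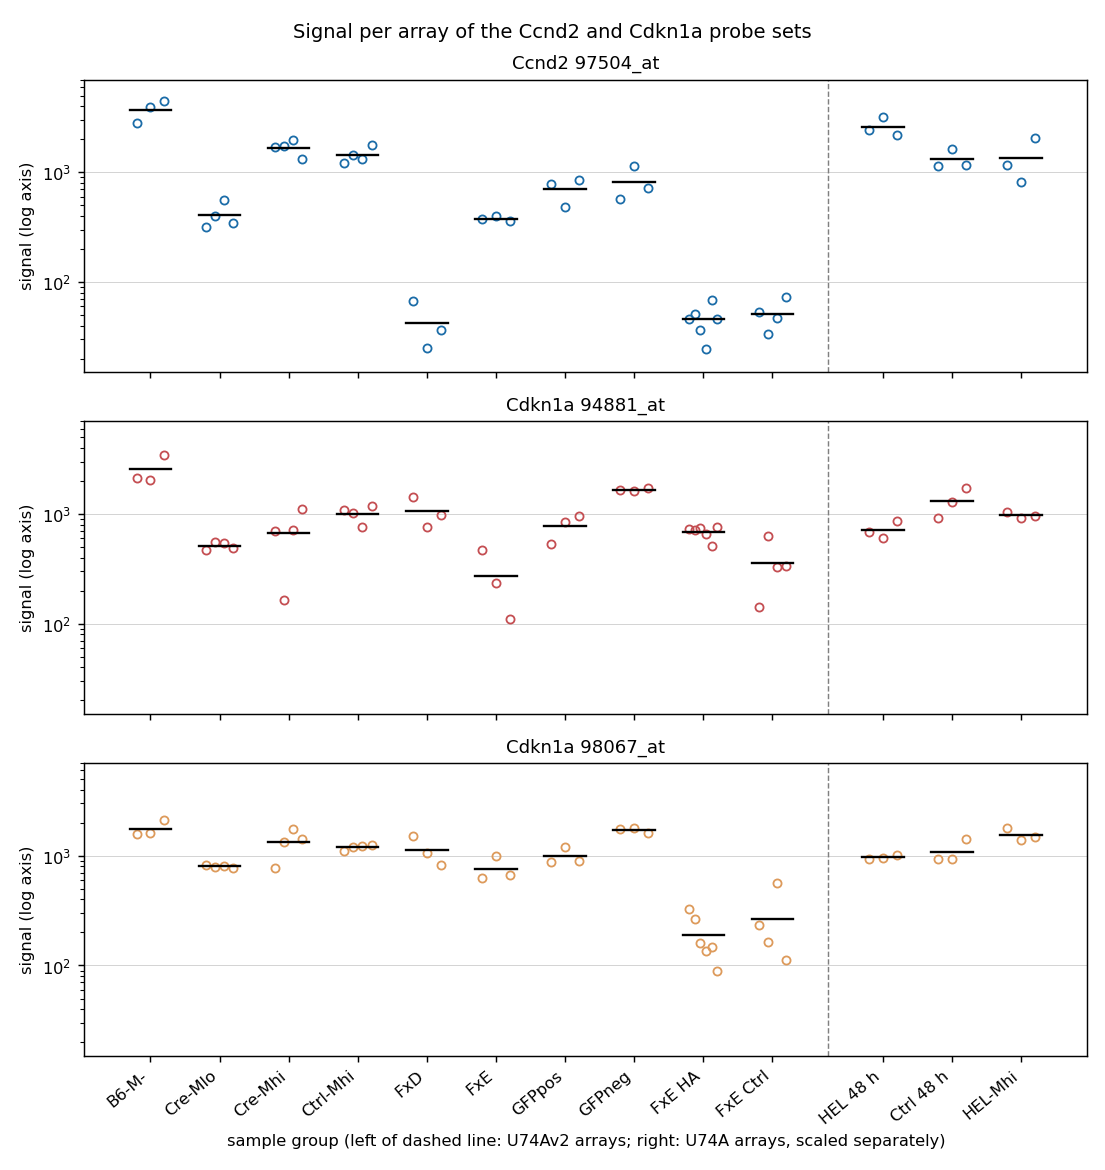
Signal of each array (circles) and group mean (bars) for Ccnd2 97504_at, Cdkn1a 94881_at and Cdkn1a 98067_at, on log axes, with the 10 U74Av2 groups left of the dashed line and 3 U74A groups, scaled separately, right of it. The B6-M- arrays lie above those of every other U74Av2 group for Ccnd2 and for 94881_at but not for 98067_at, and Ccnd2 falls near the floor of 20 units in FxD, FxE HA and FxE Ctrl cells.

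On the U74A arrays Ccnd2 signals were 2415, 3218 and 2190 units in HEL 48 h cells (2608 ± 540, n = 3), against 1148, 1635 and 1173 in Ctrl 48 h cells (1319 ± 274, n = 3). HEL-Mhi arrays gave 1165, 809 and 2056 (1344 ± 642, n = 3). HEL 48 h arrays all lay above Ctrl 48 h arrays, where the arrays of 20.6% of all probe sets did not overlap. HEL-Mhi arrays had values for 9977 probe sets, against 12588 on HEL 48 h and Ctrl 48 h arrays, which have no stated scaling target. Their units may therefore not be alike, and HEL-Mhi was not ranked against these groups. In HEL-Mlo cells, whose scale differs, Ccnd2 stood at the 87.2nd to 93.8th percentile of its own arrays. The corresponding percentiles there were 66.4 to 81.7 for 94881_at and 73.9 to 83.5 for 98067_at.

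Differences between groups were fitted on log2 signals with limma over all probe sets of a table. Its moderated tests were two-sided and adjusted by Benjamini and Hochberg, and a probe set was called at an adjusted p under 0.05. The tests measure the spread between arrays, which the study's methods describe as independent sorts for Cre-Mlo, Cre-Mhi, Ctrl-Mhi, FxD and FxE. Fewer sorts than arrays are described for FxE HA and FxE Ctrl. For B6-M-, GFPpos and GFPneg the number of sorts given may also be below that of the arrays. The labels do not tie arrays to sorts, so p-values of fits that hold these groups may be too small. In sorted pools such as these, fewer cells of a type and less RNA per cell cannot be told apart.

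B6-M- progenitors were set against the mean of the other 9 U74Av2 groups first. Ccnd2 was 12.5-fold higher in B6-M- cells (log2 difference 3.64 ± 0.25, SE, limma adjusted p = 9.68e-12). Cdkn1a was 3.87-fold higher on 94881_at (1.95 ± 0.37, adjusted p = 2.13e-04) and 2.38-fold higher on 98067_at (1.25 ± 0.30, adjusted p = 0.00296). All 3 probe sets were thus called higher, where 19.4% of all probe sets were called in either direction. The other groups differ from B6-M- in strain, transgenes, culture and sort, and FxD and FxE RNA had 2 rounds of amplification, so these cannot be told apart from the progenitor state in this contrast.

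Taken group by group, Ccnd2 was higher in B6-M- cells than in each of the 9 groups, Cdkn1a 94881_at than in 6 and 98067_at than in 3. Non-overlapping arrays were found for Ccnd2 against 9 groups, for 94881_at against 9 and for 98067_at against 7. Among all probe sets, B6-M- arrays lay wholly above those of the other group in 12.1% (GFPneg), 13.1% (GFPpos), 13.7% (Ctrl-Mhi), 14.3% (Cre-Mhi), 14.6% (Cre-Mlo), 17.4% (FxE HA), 19.4% (FxD), 19.5% (FxE Ctrl) and 24.5% (FxE), and above all 9 groups at once in 1.49%. These contrasts share the B6-M- arrays. The share of all probe sets called in them was 12% against Cre-Mlo, 12.3% against Cre-Mhi, 12.4% against Ctrl-Mhi, 21.3% against FxD and 27.7% against FxE. It was 35.4% against FxE HA, 31.1% against FxE Ctrl, 7.16% against GFPpos and 4.97% against GFPneg. The smallest Ccnd2 difference was that to Cre-Mhi cells (log2 1.14 ± 0.32, 2.21-fold, adjusted p = 0.0154), which missed the threshold without B6-M- replicate 2 (1.10, adjusted p = 0.0619) or replicate 3 (1.00, adjusted p = 0.0969). The next was that to Ctrl-Mhi cells (1.36, adjusted p = 0.0036). Ccnd2 differed by 2.24 from GFPneg, 2.42 from GFPpos, 3.20 from Cre-Mlo and 3.27 from FxE cells (adjusted p = 3.61e-05, 1.22e-05, 1.66e-08 and 1.24e-08). The differences to FxE Ctrl, FxE HA and FxD cells were 6.21, 6.40 and 6.54, and the last is 93.3-fold against signals near the floor.

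For Cdkn1a the groups closest to B6-M- were others. On 94881_at B6-M- cells were higher than FxE (log2 3.43, adjusted p = 2.82e-06), FxE Ctrl (2.97, adjusted p = 6.89e-06), Cre-Mlo (2.27, adjusted p = 8.70e-04), Cre-Mhi (2.16, adjusted p = 0.00142), FxE HA (1.87, adjusted p = 7.98e-04) and GFPpos cells (1.71, adjusted p = 0.0308). The last of these was not called when any 1 of the B6-M- arrays, or GFPpos replicate 1 or 2, was left out, the adjusted p reaching 0.169. The differences to Ctrl-Mhi (1.31, adjusted p = 0.0626), FxD (1.28, adjusted p = 0.0661) and GFPneg cells (0.57, adjusted p = 0.756) did not pass. The first passed, with an adjusted p down to 0.0190, when 1 array of a group outside the contrast was left out, namely Cre-Mhi replicate 2 (that with 166 units) or 4, FxE replicate 1 or 3, or FxE Ctrl replicate 1 or 2. The second passed, down to 0.0215, without Cre-Mhi replicate 2, FxE replicate 1 or 3, or FxE Ctrl replicate 1. On 98067_at B6-M- cells were higher than FxE HA (3.36, adjusted p = 7.00e-09), FxE Ctrl (2.99, adjusted p = 3.14e-07) and FxE cells (1.23, adjusted p = 0.0229). The last was not called without B6-M- replicate 3, FxE replicate 1 or FxE replicate 3, the adjusted p reaching 0.0943. Against Cre-Mlo cells the difference was 1.13 (adjusted p = 0.0513), and it passed, with an adjusted p down to 0.0173, without Cre-Mhi replicate 1, FxD replicate 1, FxE HA replicate 1, 2 or 6, or FxE Ctrl replicate 3 or 4. Against GFPneg cells it was 0.03 (adjusted p = 0.998).

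**Figure D2:**
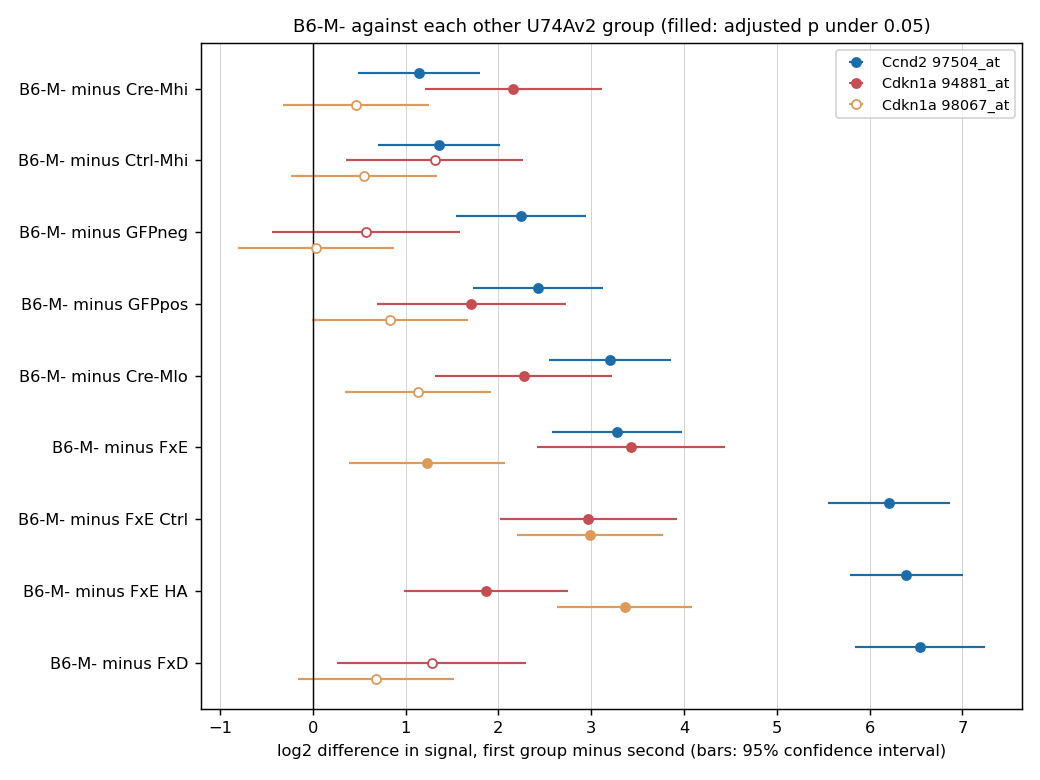
Log2 difference in signal, B6-M- minus each other U74Av2 group, with 95% confidence intervals (bars) for Ccnd2 97504_at, Cdkn1a 94881_at and Cdkn1a 98067_at; filled points were called at an adjusted p under 0.05. Ccnd2 is called in all 9 contrasts, with differences of 1.14 to 6.54, and the Cdkn1a differences to GFPneg cells, 0.57 and 0.03, are the smallest of their probe sets.

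Other genes of the G1 and S phase machinery were read from lists of known genes in the same contrast. Of 3 measured D-type cyclins and kinases, Ccnd2 and Cdk4, the catalytic partner of D-type cyclins (log2 1.39, adjusted p = 3.63e-05), were higher in B6-M- cells, and Ccnd1, another D-type cyclin, had a difference of -0.15 (adjusted p = 0.824). Ccnd3 and Cdk6 were not analysed here. Of 6 CDK inhibitors, Cdkn1a and Cdkn2d, an inhibitor of Cdk4 and Cdk6 (0.51, adjusted p = 0.0348), were called higher and none lower. Cdkn1b, which encodes p27 (0.53), Cdkn1c, which encodes p57 (-0.53), Cdkn2a (-0.05) and Cdkn2b (0.41) did not pass (adjusted p = 0.484 or more). All 5 genes of cyclin E, cyclin A and Cdk2 rose, among them Ccne2 (1.99, adjusted p = 0.00251), Ccna2 (1.48, adjusted p = 4.05e-04) and Cdc25a, a phosphatase that activates Cdk2 (1.03, adjusted p = 1.17e-04). The list medians were 1.39 for D-type cyclins and kinases, 0.46 for CDK inhibitors and 1.03 for cyclin E, A and Cdk2, against -0.06 over all probe sets.

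STAT5 targets were higher in B6-M- cells in 7 of 8 cases (median log2 difference 1.79), led by Socs2 (3.73 ± 0.37, adjusted p = 1.41e-08), Socs3 (3.56 ± 0.38, adjusted p = 3.89e-08), both feedback inhibitors of cytokine receptors, and Myc (3.23 ± 0.52, adjusted p = 2.87e-05), a transcription factor that drives growth. Of 11 p53 targets, Cdkn1a aside, 1 was higher and 2 were lower (median -0.08). These were Sesn1, a stress-induced inhibitor of growth signalling (0.38, adjusted p = 0.0407), Btg2, an antiproliferative gene (-0.68, adjusted p = 0.00152), and Ei24 (-0.54, adjusted p = 0.00388). Among 16 upstream factors Myc and Mycn (2.29, adjusted p = 0.00117) were higher, and the repressor Bcl6 (-1.11, adjusted p = 0.00479) and Klf6 (-0.69, adjusted p = 0.00129) lower. Of 7 pocket proteins and E2F factors Tfdp1, the E2F partner (2.58, adjusted p = 3.08e-07), E2f1 (1.59, adjusted p = 0.0142) and Rbl1 (1.19, adjusted p = 0.0242) were higher and none lower. Of the 56 listed genes called in this contrast 43 kept their call with each of the 37 arrays left out, and of those named Cdkn2d, Rbl1, E2f1, Mcm6, Sesn1, Btg2, Ei24 and Bcl6 did not.

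Genes of S phase and mitosis had their highest levels in B6-M-, FxD and GFPneg cells. Of 17 S phase genes 16 were called higher in B6-M- cells than in the mean of the other groups (median 1.72), among them Rrm2, a subunit of ribonucleotide reductase (2.67, adjusted p = 6.01e-04), and the DNA polymerase gene Pola1 (2.59, adjusted p = 6.83e-04). Mcm6, singled out after its values were seen, was lower at low signals of 23.3 units in B6-M- cells (-1.88, adjusted p = 0.0123). Of 15 mitosis genes 14 were higher (median 1.62). The mean log2 signal of the S phase genes was 11.80 ± 0.17 in B6-M- (SD over arrays), 11.98 ± 0.13 in FxD and 11.65 ± 0.43 in GFPneg cells. It was 9.54 ± 0.34 in Cre-Mlo, 10.10 ± 0.33 in Cre-Mhi and 10.20 ± 0.36 in Ctrl-Mhi cells. FxE cells had 9.73 ± 0.26, GFPpos cells 9.74 ± 0.65, FxE HA cells 9.15 ± 0.17 and FxE Ctrl cells 9.47 ± 0.31. The arrays of B6-M-, FxD and GFPneg overlapped one another, and all lay above those of the other 7 groups. The 15 mitosis genes gave the same 3 groups the highest levels, with means of 12.61 ± 0.14 in B6-M-, 12.81 ± 0.36 in FxD and 12.74 ± 0.38 in GFPneg cells.

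Ccnd2 and Cdkn1a were each set beside this measure of cycling, and whether their correlations with it differ was not tested. Over the 10 group means, Ccnd2 and the S phase genes had a Pearson r of 0.25 (rho 0.39). For Cdkn1a the values were 0.76 (rho 0.78) on 94881_at and 0.70 (rho 0.86) on 98067_at. Against the mitosis genes r was 0.53 (rho 0.36) for Ccnd2, 0.69 (rho 0.76) for 94881_at and 0.93 (rho 0.84) for 98067_at. These describe 10 groups that share arrays and scaling between both axes. FxD cells, with the highest mean of S phase genes, had the lowest mean of Ccnd2, and GFPneg cells, whose S phase levels overlapped those of B6-M- cells, had 812 ± 301 units of Ccnd2 against 3735 ± 826 in B6-M- cells.

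**Figure D3:**
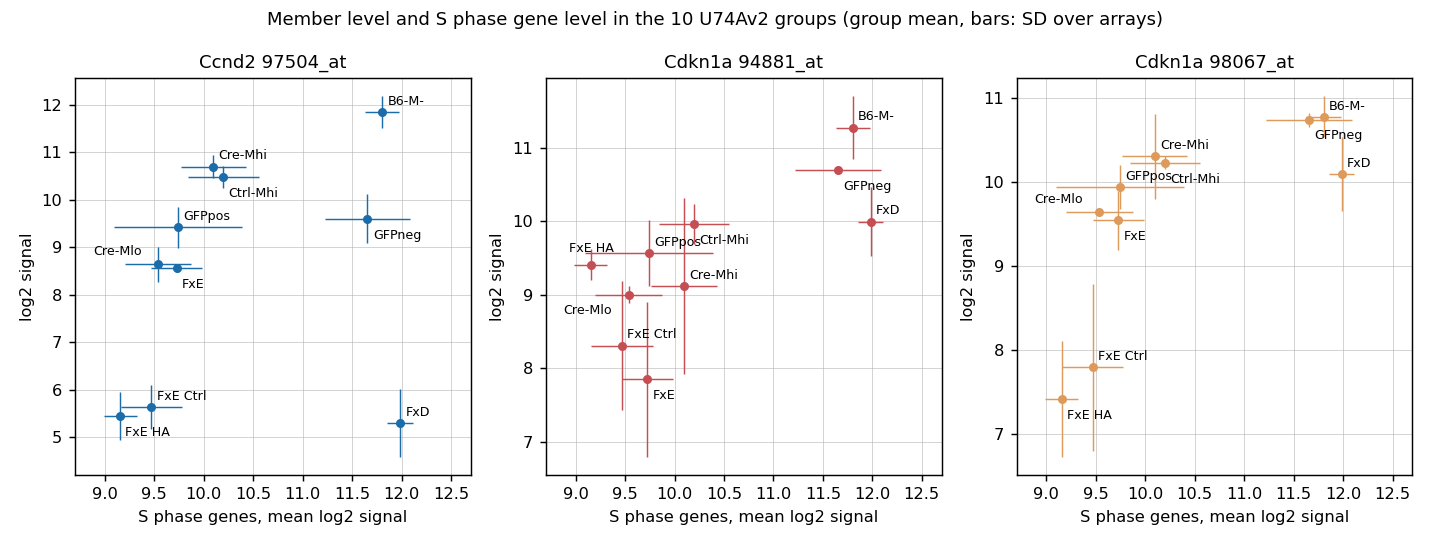
Log2 signal of Ccnd2 97504_at, Cdkn1a 94881_at and Cdkn1a 98067_at (vertical) against the mean log2 signal of 17 S phase genes (horizontal) in the 10 U74Av2 groups; points are group means and bars the SD over arrays. FxD cells sit at the right in all 3 panels, at an S phase level of 11.98, but at the bottom for Ccnd2.

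Cells that lost surface IgM had less Ccnd2 than cells that kept it. Cre-Mlo cells had 409 ± 110 units, against 1443 ± 245 in Ctrl-Mhi cells, a 3.58-fold lower level (log2 difference -1.84 ± 0.20, limma adjusted p = 2.94e-04), in a comparison where 8.33% of probe sets were called. Against Cre-Mhi cells, which had the same treatment and the Mx-Cre transgene, Ccnd2 was 4.16-fold lower (-2.06 ± 0.20, adjusted p = 1.93e-04, 6.08% called). No Cre-Mlo array reached any Cre-Mhi or Ctrl-Mhi array (arrays did not overlap for 13.9% and 16.7% of probe sets), and both calls held with each of the 12 arrays left out in turn. Cre-Mhi and Ctrl-Mhi cells differed by 0.22 in Ccnd2 (95% interval -0.23 to 0.67, adjusted p = 0.87), where 0.02% of probe sets were called. The paper reports that part of the Cre-Mhi cells had already deleted the loxP-flanked allele. It describes most of its listed genes as intermediate in them. The Ccnd2 mean of Cre-Mhi cells, 1677 ± 266 units, did not lie between those of Ctrl-Mhi and Cre-Mlo cells.

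Cdkn1a was below the Ctrl-Mhi arrays on every Cre-Mlo array with both probe sets, but neither difference passed. On 94881_at it was -0.96 ± 0.47 (adjusted p = 0.277) and on 98067_at -0.58 ± 0.21 (adjusted p = 0.13). The methods' t-test on linear signals gave unadjusted p-values of 0.00955 and 3.63e-04, both under the methods' threshold of 0.01. After Benjamini-Hochberg adjustment they were 0.109 and 0.0236. Neither ratio of means reached the 2-fold change that the methods also ask for (log2 -0.97 and -0.58). The paper names Cdkn1a, with cyclin D2, among the genes with lower mRNA in Cre-Mlo cells. Its rule for undetected values was not applied here, so the ratios given here may differ from those of the paper. Against Cre-Mhi cells the differences were -0.11 (adjusted p = 0.944) and -0.66 (adjusted p = 0.11), and Cre-Mhi minus Ctrl-Mhi gave -0.85 (adjusted p = 0.76) and 0.08 (adjusted p = 0.97). Leaving out single Cre-Mhi arrays, which are part of the same fit, changed these calls. Without Cre-Mhi replicate 2, the array with 166 units on 94881_at, Cre-Mlo minus Ctrl-Mhi was -0.96 with an adjusted p of 0.0144. Without Cre-Mhi replicate 1, which had 772 units on 98067_at, the difference to Ctrl-Mhi cells was -0.58 (adjusted p = 0.0151) and that to Cre-Mhi cells -0.90 (adjusted p = 0.00369).

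Another CDK inhibitor, Cdkn1b, was higher in Cre-Mlo cells, with 642 units against 204.6 in Ctrl-Mhi cells (log2 1.87 ± 0.47, adjusted p = 0.0332), and Cdkn2d was lower (-0.72 ± 0.16, adjusted p = 0.0206). Against Cre-Mhi cells these were 0.93 (adjusted p = 0.355) and -0.58 (adjusted p = 0.0686). Ccnd1 (0.06), Cdk4 (0.32), Cdkn1c (-0.13), Cdkn2a (-0.42) and Cdkn2b (-0.36) did not pass (adjusted p = 0.429 or more) against Ctrl-Mhi cells. STAT5 targets rose in 5 of 8 cases against Ctrl-Mhi cells (median 1.05), among them the kinases Pim2 (2.11, adjusted p = 5.90e-05) and Pim1 (1.39, adjusted p = 0.00129), Socs1 (1.65, adjusted p = 6.08e-04) and the survival gene Bcl2l1 (1.06, adjusted p = 0.0129). Of 11 p53 targets, Gadd45a, a stress sensor (1.09, adjusted p = 0.00569), and Sesn1 (0.44, adjusted p = 0.0356) rose, and none fell. Of 17 S phase genes Mcm6 (-1.99, adjusted p = 0.00596) and Cdc45 (-0.79, adjusted p = 0.0439), parts of the replicative helicase, fell, with a list median of -0.48 against -0.04 over all probe sets. Mcm6 had low signals of 46.1 units in Cre-Mlo and 173 in Ctrl-Mhi cells. The helicase genes Mcm2, Mcm3, Mcm4, Mcm5 and Mcm7 did not pass (-1.165 to 0.127, adjusted p = 0.087 or more). Of the upstream factors the immediate early gene Egr1 (-1.94, adjusted p = 0.0221) and Klf4 (-1.34, adjusted p = 0.0483) fell. Of the 14 listed genes called here, 8 kept their call with each of the 12 arrays left out, and Cdkn1b, Cdkn2d, Cdc45, Sesn1, Egr1 and Klf4 did not.

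Fresh pre-B cells had less Ccnd2 than fresh immature B cells. FxD cells had 42.7 ± 21.5 units, against 380 ± 20.7 in FxE cells, 9.64-fold lower (log2 -3.27 ± 0.39, limma adjusted p = 0.0184), where 3% of probe sets were called. The arrays did not overlap, as for 20.2% of probe sets. The call was lost with the replicate number as a block (-3.27, adjusted p = 0.109). With 1 array left out the call was kept without FxD replicate 1 (-3.65, adjusted p = 0.0492) and lost in the other 5 cases, where the difference was -3.31 to -2.94 with an adjusted p of up to 0.105. Cdkn1a 94881_at went the other way, with all 3 FxD arrays above all 3 FxE arrays, and did not pass (2.15 ± 0.57, adjusted p = 0.145). On 98067_at the difference was 0.55 (adjusted p = 0.56) and the arrays overlapped. In the same comparison 15 of 17 S phase genes (median 2.28) and 13 of 15 mitosis genes (median 2.71) rose in FxD cells, against a median of 0.04 over all probe sets. They included Rrm2 (3.97, adjusted p = 0.0234), Prim1, a primase subunit (3.89, adjusted p = 0.0122), and Top2a, a topoisomerase (4.06, adjusted p = 0.0154). Cdkn1c rose (2.59 ± 0.44, adjusted p = 0.0381), while Cdk4 (1.18), Ccnd1 (-0.79), Cdkn1b (1.08), Cdkn2d (0.52), Cdkn2a (-0.08) and Cdkn2b (0.17) did not pass (adjusted p = 0.133 or more). Ccna2, the S phase cyclin (2.14, adjusted p = 0.0186), Tfdp1 (2.21, adjusted p = 0.0362), Bcl2l1 (2.51, adjusted p = 0.0295) and Socs1 (1.85, adjusted p = 0.0421) also rose. None of the 34 listed genes called in this comparison kept its call in all 6 fits that leave out 1 array. The calls fell to between 0 and 9 of the S phase genes and between 0 and 10 of the mitosis genes, with 0 of all probe sets called without FxD replicate 2, and 0 with the block (limma, 1484 and 1185 at an unadjusted p under 0.05).

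Whether FxD minus FxE differed from Cre-Mlo minus Ctrl-Mhi was tested directly as a difference of differences in 1 fit over the U74Av2 arrays. Ccnd2 was lower in both, and its difference of -1.43 ± 0.45 did not pass (adjusted p = 0.0759, 3.86% of probe sets called), though it did without FxD replicate 1 (-1.81, adjusted p = 0.021). Cdkn1a 94881_at did differ, by 3.11 ± 0.66 (adjusted p = 0.00384), from 2.15 in FxD minus FxE and -0.96 in Cre-Mlo minus Ctrl-Mhi. This fit pools the spread of all its groups, which was unequal on 94881_at. The SD was 67.6% of the mean in FxE, 33.0% in FxD, 17.8% in Ctrl-Mhi and 8.3% in Cre-Mlo cells. On 98067_at the difference was 1.13 ± 0.54 (adjusted p = 0.328).

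Herbimycin A was compared in both cell sources, and no member passed in either. GFPpos cells had 703 ± 190 units of Ccnd2, against 812 ± 301 in GFPneg cells (log2 -0.19, 95% interval -1.06 to 0.69, limma adjusted p = 0.82), where 2.59% of probe sets were called. Cdkn1a was lower in GFPpos cells on all arrays of both probe sets, where 29.2% of all probe sets did not overlap, with differences of -1.14 ± 0.25 (adjusted p = 0.0798) on 94881_at and -0.80 ± 0.18 (adjusted p = 0.0812) on 98067_at. Both were called, at adjusted p = 0.0344 and 0.0364, when only probe sets with a mean signal of at least 200 were tested. S phase and mitosis genes had medians of -1.85 and -2.54 in the same comparison, against -0.02 over all probe sets, with Prim1 the 1 of 17 S phase genes that passed (-2.94, adjusted p = 0.029). Cdkn1b (1.36), Cdkn2d (-1.12), Ccnd1 (-0.75), Cdk4 (-0.12), Cdkn1c (0.06), Cdkn2a (-1.10) and Cdkn2b (-0.13) did not pass (adjusted p = 0.0709 or more). E2f1 (-2.52, adjusted p = 0.0238) and Egr1 (-1.57, adjusted p = 0.0424) fell, and Socs1 (3.15, adjusted p = 0.00346), Pim1 (1.16, adjusted p = 0.0405) and Bcl2l1 (0.97, adjusted p = 0.0428) rose. Of 11 p53 targets Btg2 (0.88, adjusted p = 0.0481) and Sesn1 (0.74, adjusted p = 0.0494) rose and Tap1, a peptide transporter (-1.85, adjusted p = 0.023), fell. None of the 9 listed genes called in this comparison kept its call in all 6 fits that leave out 1 array, and none was called with the block. Without GFPpos replicate 2 only 1 of all probe sets was called.

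In Bcl-2 transgenic cells Ccnd2 was near the floor with and without herbimycin A. FxE HA minus FxE Ctrl, with hours as a factor, gave -0.11 (95% interval -0.72 to 0.51, limma adjusted p = 0.91, 3.37% called). It was -0.14 at 24 h (4 and 2 arrays) and -0.06 at 48 h (2 and 2). Cdkn1a 94881_at had a difference of 1.10 ± 0.37 (adjusted p = 0.174), with 1.24 at 24 h and 0.90 at 48 h, and the groups overlapped through the FxE Ctrl array with 630.0 units. On 98067_at the difference was -0.44 (adjusted p = 0.76), with 0.09 at 24 h and -1.14 at 48 h. Cdkn1c (2.02), Cdkn2d (-0.85), Ccnd1 (0.87), Cdk4 (-0.68), Cdkn1b (0.47), Cdkn2a (-0.88) and Cdkn2b (0.24) did not pass (adjusted p = 0.0863 or more). Of the other lists Gadd45a (1.96, adjusted p = 2.55e-04), Socs1 (1.68, adjusted p = 0.00465) and Pim1 (0.90, adjusted p = 0.0283) rose, and the mitotic kinase Aurkb (-2.01, adjusted p = 0.0115), Tap1 (-1.52, adjusted p = 0.00199), Bcl6 (-1.35, adjusted p = 0.0148) and Id3 (-1.33, adjusted p = 0.0130) fell. Of these 7 genes Gadd45a, Socs1 and Tap1 kept their calls with each of the 10 arrays left out.

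The direction of Cdkn1a 94881_at opposed between the 2 herbimycin A comparisons, and the test of that difference did not pass. FxE HA minus FxE Ctrl exceeded GFPpos minus GFPneg by 2.24 ± 0.63 (adjusted p = 0.0632), where 1.92% of probe sets were called. It passed, with an adjusted p down to 0.0175, without Cre-Mhi replicate 2 or 4, FxE replicate 1 or 3, or FxE Ctrl replicate 2. The same test gave -0.01 (adjusted p = 0.999) for Ccnd2 and 0.43 (adjusted p = 0.837) for 98067_at. Hours in culture were not a factor in this fit, so its values are not the plain differences of those given above. GFPpos minus GFPneg was also set against Cre-Mlo minus Ctrl-Mhi, where 0.461% were called. Ccnd2, called in the second and not in the first, had a difference of 1.65 ± 0.45 between them that did not pass (adjusted p = 0.125), and the Cdkn1a values were -0.18 (adjusted p = 0.999) and -0.22 (adjusted p = 0.997).

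After 48 h with antigen Ccnd2 was higher on all HEL 48 h arrays than on all Ctrl 48 h arrays, but the difference did not pass (log2 0.98 ± 0.26, 95% interval 0.35 to 1.62, limma adjusted p = 0.249), in a comparison where 0.23% of probe sets were called and the arrays of 20.6% did not overlap. It was 1.02 on the scan day with 2 arrays of each group and 0.90 on that with 1 of each. Cdkn1a 94881_at gave 686, 603 and 866 units in HEL 48 h cells, against 925, 1288 and 1741 in Ctrl 48 h cells, and 1036, 924 and 958 in HEL-Mhi cells. All HEL 48 h arrays were below all Ctrl 48 h arrays there, with a difference of -0.85 ± 0.30 (adjusted p = 0.379), and of -0.76 and -1.01 on the 2 scan days. On 98067_at HEL 48 h arrays had 940.0, 951 and 1015 units, against 933, 932 and 1413 in Ctrl 48 h arrays, and 1783, 1390.5 and 1474 in HEL-Mhi arrays. These HEL 48 h and Ctrl 48 h arrays overlapped (-0.15, adjusted p = 0.835). No other D-type cyclin, kinase or inhibitor passed, the largest differences being those of Cdkn2a (-0.82, adjusted p = 0.509) and Cdkn2d (-0.71, adjusted p = 0.249). The 16 S phase genes with a value on all U74A arrays, of 18 measured in HEL 48 h and Ctrl 48 h cells, had mean log2 signals of 9.59 ± 0.20 in HEL 48 h cells, against 9.53 ± 0.06 in Ctrl 48 h cells. The mean was 11.41 ± 0.40 in HEL-Mhi cells, whose units may not be alike.

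**Figure D4:**
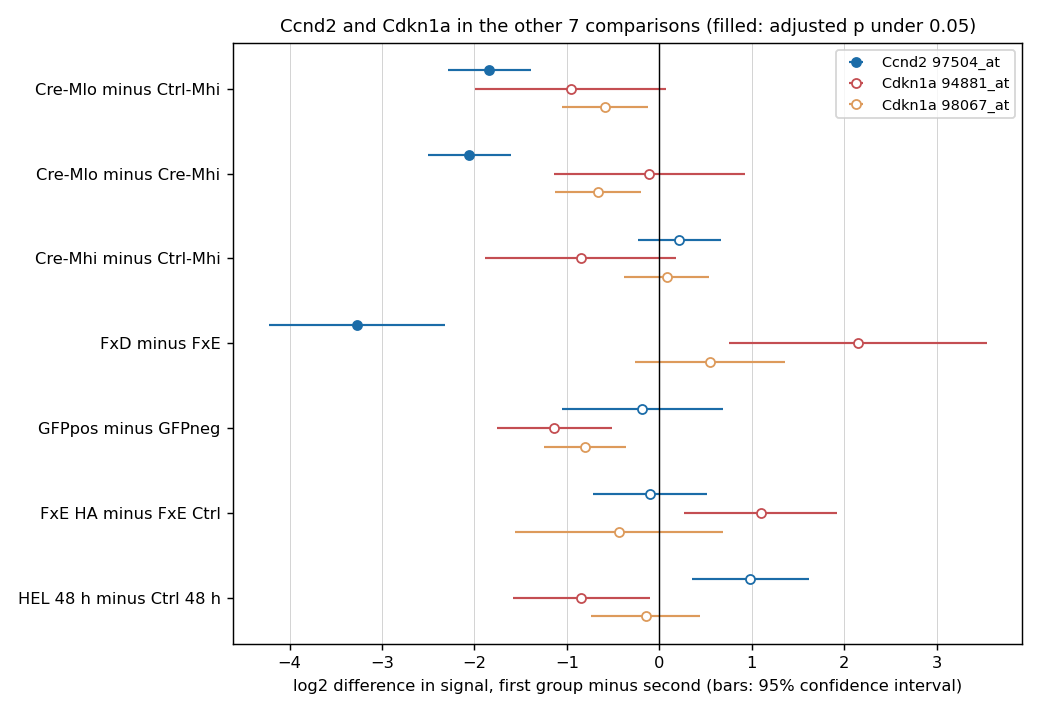
Log2 difference in signal, first group minus second, in the 7 comparisons other than B6-M-, with 95% confidence intervals (bars) for Ccnd2 97504_at, Cdkn1a 94881_at and Cdkn1a 98067_at; filled points were called at an adjusted p under 0.05. Ccnd2 is called lower in Cre-Mlo cells against both IgM-high groups (-1.84 and -2.06) and in FxD against FxE cells (-3.27), and no Cdkn1a point is filled.

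The genes whose group means were most like each member were taken from probe sets with a mean signal of at least 500 and 1 matching gene, by Pearson r over the 10 U74Av2 groups. For Ccnd2, among 4506 probe sets, they were Nab1, a corepressor of Egr factors (0.95), the transcription factor Klf9 (0.95), Ppp3r1, the regulatory subunit of calcineurin (0.94), the sorting nexin Snx5 (0.93) and Wls, a carrier of Wnt proteins (0.93). Over the 37 single arrays their r ran from 0.73 to 0.90, and they ranked 2, 241, 366, 50 and 6. For Cdkn1a 94881_at, among 4505, they were Pmf1 (0.93), Gtpbp1 (0.92), Nucks1 (0.92), Cox7a2, a subunit of cytochrome c oxidase (0.90), and Acp6 (0.90), with r of 0.50 to 0.80 over the arrays and ranks of 1, 260, 15, 94 and 13. For 98067_at they were Cks1b, a small subunit of CDK complexes (0.98), the proliferation marker Mki67 (0.97), Septin7 (0.97), Sdha, a subunit of succinate dehydrogenase (0.97), and Cstf2 (0.97), with r of 0.78 to 0.90 and ranks of 8, 3, 133, 20 and 15. By Spearman rho over the same group means, the 5 genes ranked 4.5 to 117.5 for Ccnd2, 1 to 94 for 94881_at and 10 to 217.5 for 98067_at. The order of likeness thus differed between group means and single arrays, and between Pearson r and rho. No gene was among the 5 of more than 1 probe set. The log2 group means of Ccnd2 had an r of 0.43 with those of 94881_at (rho 0.38) and of 0.76 with those of 98067_at (rho 0.78).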

How the data were processed

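Signals were measured on 37 U74Av2 and 12 U74A Affymetrix arrays. The deposited values are hybridization intensities per probe set on the linear scale, which the authors calculated with Microarray Suite 5.0 and scaled to 1500 units after a mask file; for HEL 48 h and Ctrl 48 h neither target nor mask is given in the sources used here. Detection p-values were not used here, so the rule of the methods that sets undetected values to 20 was replaced by a floor of 20. The number of arrays limits the precision.

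Moderated tests on log2 signals came from limma 3.58.1 (lmFit, eBayes; R 4.3.3), Benjamini and Hochberg adjustment ran across the whole table, and calls were made below 0.05. Cre-Mlo, Cre-Mhi and Ctrl-Mhi shared 1 fit, each other pair had its own, and B6-M- contrasts and differences of differences used all 37 U74Av2 arrays. The hours of FxE HA and FxE Ctrl arrays were read, by replicate number, from a legend of the study. The procedure was tested on simulated data. Probe sets were named by RefSeq (8724 of 9977 and 10276 of 12588 match 1 gene).

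The members and lists were chosen with earlier results of these data known. Named were both members, all measured D-type cyclins, their kinases and CDK inhibitors, up to 4 called genes with the largest difference per other list and comparison, and 5 genes by likeness. Same-numbered arrays did not pass the check for pairing (correlations of deviations above 0.1 for every pair) in any set. Alternatives covered the floor, quantile normalization, a filter on low signals, the methods' t-test, left-out arrays, the other Cdkn1a probe set and the replicate block.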

Additional observations from a re-analysis of the deposited data

Results flagged for a closer look

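Cdkn1a 94881_at moved in opposite directions in 2 comparisons that both set cells with little or no surface IgM against IgM-bearing cells, and the difference between them passed its test. FxD minus FxE exceeded Cre-Mlo minus Ctrl-Mhi by 3.11 ± 0.66 on the log2 scale (limma adjusted p = 0.00384, 3.86% of probe sets called). All 3 FxD arrays lay above all 3 FxE arrays, where arrays did not overlap for 20.2% of all probe sets. All 4 Cre-Mlo arrays lay below all 4 Ctrl-Mhi arrays, where the share without overlap was 16.7%. Neither comparison passed alone, and the other Cdkn1a probe set, 98067_at, gave 1.13 ± 0.54 (adjusted p = 0.328). The test also pooled the spread of all U74Av2 groups, which was unequal on 94881_at.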

How the results depend on the processing

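Of 482 recomputed values under the alternatives listed first, 435 kept their direction and side of the threshold, and of 1599 under alternatives added after the data were seen, 1542 did. In each set 12 changed sign, all of them differences that passed in neither setting. Quantile normalization called the Ccnd2 differences between GFPpos minus GFPneg and Cre-Mlo minus Ctrl-Mhi (1.79, adjusted p = 0.0418) and between FxD minus FxE and Cre-Mlo minus Ctrl-Mhi (-1.47, 0.0482). With log2(signal + 20) and no floor, the first was 1.61 (0.0364), and the Cdkn1a 94881_at difference between the herbimycin A comparisons was 2.16 (0.0497). Testing only probe sets with a mean signal of at least 200 called that difference (2.24, 0.0387), Cdkn1a 94881_at in FxD minus FxE (2.15, 0.0482), GFPpos minus GFPneg on 94881_at (-1.14, 0.0344) and 98067_at (-0.80, 0.0364), and the Ccnd2 difference between FxD minus FxE and Cre-Mlo minus Ctrl-Mhi (-1.43, 0.0489), with fewer probe sets to adjust over. Ccnd2 in FxE HA and FxE Ctrl cells lay under that filter and could not be tested with it. The methods' t-test on linear signals gave 94881_at in FxD minus FxE 1.96 (unadjusted p = 0.0403). Against Ctrl-Mhi alone, B6-M- exceeded on 98067_at by 0.55 (adjusted p = 0.0671). On the other Cdkn1a probe set the difference between FxD minus FxE and Cre-Mlo minus Ctrl-Mhi was 1.13 (0.328), B6-M- exceeded 3 groups in place of 6, and the sign turned for Cre-Mhi minus Ctrl-Mhi (0.078) and FxE HA minus FxE Ctrl (-0.44). The causes were not tested.

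With the replicate block, Ccnd2 in FxD minus FxE kept -3.27 but missed the threshold (adjusted p = 0.109), and the block changed no other call of a member. Same-numbered arrays did not meet the check for pairing (correlations of -0.21 to -0.03 for FxD and FxE, -0.03 to 0.08 for GFPpos and GFPneg, 0.08 to 0.32 for Cre-Mlo and Cre-Mhi, 0.07 to 0.15 for HEL 48 h and Ctrl 48 h), though in the last 2 sets each array correlated best with its own number. Cre-Mlo and Cre-Mhi cells were sorted from cultures of 1 genotype, and same-numbered HEL 48 h and Ctrl 48 h arrays share a scan day. Leaving out single arrays moved Ccnd2 in FxD minus FxE between -3.65 and -2.94, and its difference to Cre-Mlo minus Ctrl-Mhi between -1.81 and -1.10. Cre-Mlo minus Ctrl-Mhi ran from -0.62 to -0.56 on 98067_at and from -1.09 to -0.88 on 94881_at, and Cre-Mlo minus Cre-Mhi on 98067_at from -0.90 to -0.50. The 94881_at difference between the herbimycin A comparisons ran from 1.85 to 2.57. Signs turned within the ranges of Ccnd2 in GFPpos minus GFPneg (-0.41 to 0.10) and FxE HA minus FxE Ctrl (-0.24 to 0.055) and in the difference between them (-0.29 to 0.22, and 0.05 with no floor), of 94881_at in Cre-Mlo minus Cre-Mhi (-0.69 to 0.23) and in GFPpos minus GFPneg against Cre-Mlo minus Ctrl-Mhi (-0.35 to 0.075), and of 98067_at in Cre-Mhi minus Ctrl-Mhi (-0.082 to 0.32), FxE HA minus FxE Ctrl (-0.71 to 0.07), HEL 48 h minus Ctrl 48 h (-0.25 to 0.054) and B6-M- minus GFPneg (-0.11 to 0.11).

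Counts of called probe sets moved more. FxD minus FxE had 299, but 0 to 125 with 1 array left out (limma, 1484 at an unadjusted p under 0.05 where none passed), 500 with a mean of at least 200 units and 515 by the methods' criteria (1 after Benjamini and Hochberg). GFPpos minus GFPneg had 258, against 1 to 91, 736 and 183 (1). HEL 48 h minus Ctrl 48 h had 29, against 0 to 3 (1649 unadjusted where none passed), 73 and 100 (0). The block left 0 limma calls in each of these 3, with 1185, 1790 and 1368 at an unadjusted p under 0.05. Single left-out arrays gave 186 to 323 in place of 336 for FxE HA minus FxE Ctrl, 387 to 565 in place of 607 for Cre-Mlo minus Cre-Mhi, and 1146 to 2036 in place of 1932 for B6-M-. The methods' criteria gave 285 in place of 831 for Cre-Mlo minus Ctrl-Mhi, 217 in place of 607 and 219 in place of 336.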
